A study of Mus musculus with 10 samples.

Results

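The subject is the set of nuclear genes that encode subunits of the mitochondrial respiratory chain and ATP synthase, read in cultured mouse mammary epithelial cells with and without biglycan protein. Members were taken by gene symbol alone: every row starting with Nduf and a subunit letter and number, Sdha to Sdhd, Uqcr, Cox4 to Cox8, or Atp5, leaving out rows marked as pseudogenes with -ps. This gave 90 of 53167 rows, namely 42 of complex I, 4 of complex II, 8 of complex III, 19 of complex IV and 17 of ATP synthase. The file uses older symbols for ATP synthase, so Atp5a1 is the gene now called Atp5f1a, Atp5b is Atp5f1b, and Atp5g1, Atp5g2 and Atp5g3 are Atp5mc1, Atp5mc2 and Atp5mc3. The cells were wild-type primary cells isolated from mammary gland tissue and grown in DMEM with fetal bovine serum and antibiotics. In the BGN group, 5 samples received biglycan, a matrix proteoglycan, in the medium at 100 ng/mL, and in the Control group 5 samples received none. The study was set up to look for genes and pathways that respond to biglycan, with WNT signalling named among them. Neither the length of the exposure nor the strain, age or sex of the mice is given in the labels, and nothing there says whether replicates were separate animals or separate cultures, so the p-values speak only to the spread among these libraries, part or all of which could be technical.

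The respiratory chain passes electrons from NADH and succinate to oxygen through complexes I to IV of the inner mitochondrial membrane, and complexes I, III and IV pump protons as they do so. ATP synthase lets the protons back and makes ATP. Most subunits are encoded in the nucleus and imported, while a small number are encoded by mitochondrial DNA, and the promoters of the nuclear genes are known for sites of NRF1, of ETS factors such as GABPA, and of YY1. In epithelial cells the respiratory chain is expressed at all times, and several complex IV subunits have alternative isoforms best known from muscle, lung or testis.

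Library totals ranged from 18292624 to 21820560 counts. Of the 53167 rows, 26531 had a count and 14415 were tested. Markers of luminal and basal mammary epithelium were all detected, with Krt14 averaging 3636 counts per 1000000 counts (CPM) and Epcam 1128 CPM. In contrast, 5 of 6 lymphocyte markers and 3 of 4 red blood cell markers were at 0 in every library. Sums of the other non-epithelial markers were lower than those of luminal or basal markers. The fibroblast sum was the highest of them, and Pdgfra alone averaged 38.8 CPM. Summed endothelial markers lay between 4.47 and 5.75 CPM in BGN and between 5.32 and 6.07 CPM in Control. Summed myeloid markers lay between 2.28 and 3.86 CPM in BGN and between 2.17 and 4.23 CPM in Control. For adipocyte markers the sums were 1.93 to 2.46 CPM in BGN and 0.958 to 2.74 CPM in Control. Summed skeletal muscle markers lay between 2.46 and 3.20 CPM in BGN and between 2.13 and 3.28 CPM in Control, and summed fibroblast markers between 46.0 and 51.5 CPM in BGN and between 39.3 and 58.3 CPM in Control.

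The promoters of the subunit genes were searched for 4 short motifs, and the matches were not set beside the expression values. Windows from 250 bases before to 50 bases after a start were at hand from RefSeq (build GRCm38.p6) for 69 of the 90 members, in 74 windows. The NRF1 core GCATGCG, on either strand, was in 11 of the 74 windows (14.9%), against 3.58% of all 32851 windows of that length and 6.01% of those of the other tested genes. The ETS core CCGGAAG was in 17 windows (23.0%), against 8.86% of all and 16.9% of those of other tested genes. The YY1 core AAGATGG was in 11 windows (14.9%), against 6.34% and 6.77%. A TATA box, TATAAA, was in 9 windows (12.2%), against 13.6% of all windows and 7.04% of those of other tested genes. These shares describe letters in a window and do not show that a factor was bound. Member windows held a median of 19 CG pairs, against 7 in all other windows and 20 in those of other tested genes. Stretches of 120 bases that end just before the start are printed for 1 gene of each complex, chosen after the matches were known to show where such a match lies, 5′ to 3′ on the strand of the gene, with the matched letters in capitals. They are of Ndufa8 (chr2:36049339-36049458, minus strand), Sdhb (chr4:140961151-140961270, plus strand), Uqcrh (chr4:116075071-116075190, minus strand), Cox6a1 (chr5:115348959-115349078, minus strand) and Atp5j (chr16:84834977-84835096, minus strand).
Ndufa8: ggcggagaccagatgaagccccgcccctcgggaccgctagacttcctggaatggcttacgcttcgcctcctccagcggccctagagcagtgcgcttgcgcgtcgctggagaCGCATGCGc
Sdhb: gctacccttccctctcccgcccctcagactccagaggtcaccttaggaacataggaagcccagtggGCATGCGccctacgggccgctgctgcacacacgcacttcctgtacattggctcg
Uqcrh: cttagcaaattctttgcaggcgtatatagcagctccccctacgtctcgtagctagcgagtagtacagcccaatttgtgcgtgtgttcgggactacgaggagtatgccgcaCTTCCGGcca
Cox6a1: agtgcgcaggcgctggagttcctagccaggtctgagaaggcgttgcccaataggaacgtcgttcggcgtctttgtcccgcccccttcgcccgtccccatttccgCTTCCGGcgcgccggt
Atp5j: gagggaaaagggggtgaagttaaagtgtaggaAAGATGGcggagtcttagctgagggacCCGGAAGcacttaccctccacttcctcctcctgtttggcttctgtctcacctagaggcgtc
The capitals mark the NRF1 core on both strands, overlapping by all but 1 base, in Ndufa8 and the NRF1 core in Sdhb. In Uqcrh and Cox6a1 they mark the ETS core read on the opposite strand, and in Atp5j the YY1 core followed by the ETS core. Atp5j was the only member with both an NRF1 and a YY1 core in its windows.

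Levels of different subunits were compared per transcript length, as counts per kilobase scaled to a sum of 1000000 over all genes with a length. On this scale the median of the 81 tested members was 149.8, against 22.1 for all tested genes. ATP synthase had the highest median level of the 5 complexes, 312, followed by complex III with 195, complex IV with 181, complex II with 132 and complex I with 101. The catalytic beta and alpha subunits of the ATP synthase head led the whole set: Atp5b stood at 1097 ± 45.8 (SD, n = 10 libraries) and Atp5a1 at 789.5 ± 27.5. Within complex IV, Cox4i1, the general form of the subunit COX4, was highest at 636 ± 42.2, followed by Cox6b1 at 480.5 ± 17.9. Complex III was led by Uqcrh, the hinge protein beside cytochrome c1, at 563 ± 27.8.

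The spread between subunits of a complex was wide on this scale. The lowest of the 36 tested subunits of complex I other than Ndufa4 and its relative was Ndufb2, an accessory subunit of the membrane arm, at 15.2 ± 1.19. Core and accessory subunits of complex I had similar medians of 102 and 100.0. Complex II spanned only 2.09-fold, in the order Sdhc at 91.4 ± 4.06, Sdhb at 112 ± 7.92, Sdhd at 152 ± 7.83 and Sdha at 191 ± 7.50, and none of these neighbours came within 1 SD of each other. Some low values rest on the annotated length: Atp5g1, 1 of 3 genes for the ring subunit c, was at 16.6 with a principal transcript of 4660 bases, and Ndufb2 with 1 of 2413 bases. For 8 tested members, among them Ndufs1, Uqcrc1, Uqcrq and Sdhc, the longest annotated coding transcript was over 2 times the median one, and the level depends on which is used.

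**Figure D1:**
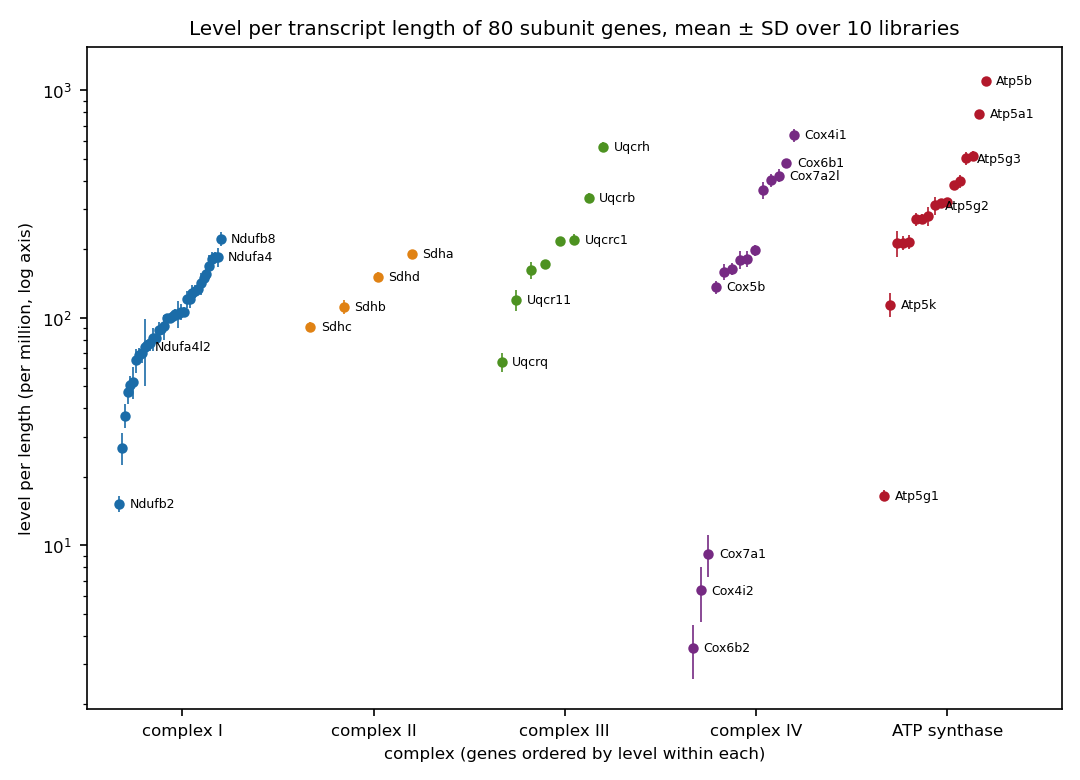
Level per transcript length (per 1000000, log axis) of 80 of the 81 tested subunit genes, ordered within each complex, as mean ± SD over 10 libraries. Over all 81, ATP synthase has the highest median (312) and complex I the lowest (101), and the 3 tested alternative complex IV isoforms Cox6b2, Cox4i2 and Cox7a1 lie far below the other complex IV genes.

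With biglycan, no subunit gene passed the test, and the estimates were small and mostly just below 0. Across all 10 libraries 71 of the 81 tested members (87.7%) had a log2 fold change (BGN over Control) below 0, against 52% of all 14415 tested genes, and the median was -0.060 for the members and -0.0040 for all genes. By edgeR's quasi-likelihood test with Benjamini-Hochberg adjustment over all tested genes, 0 members were called, and the background of calls was 0% as well. The smallest adjusted p among members was 0.945. DESeq2 and limma-voom also called 0 members. At an unadjusted p under 0.05, 7 members were lower in BGN (8.64%), against 2.38% of all tested genes, and 0 members were higher, against 2.43% (4.81% for either direction). No member had BGN and Control values that did not overlap, against 0.728% of all tested genes, or 0.354% with BGN the lower. The 95% interval lay within a 1.25-fold difference in either direction for 72 members and within 1.5-fold for 78. In pooled RNA of this kind, fewer cells of a type and less RNA per cell cannot be told apart.

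**Figure D2:**
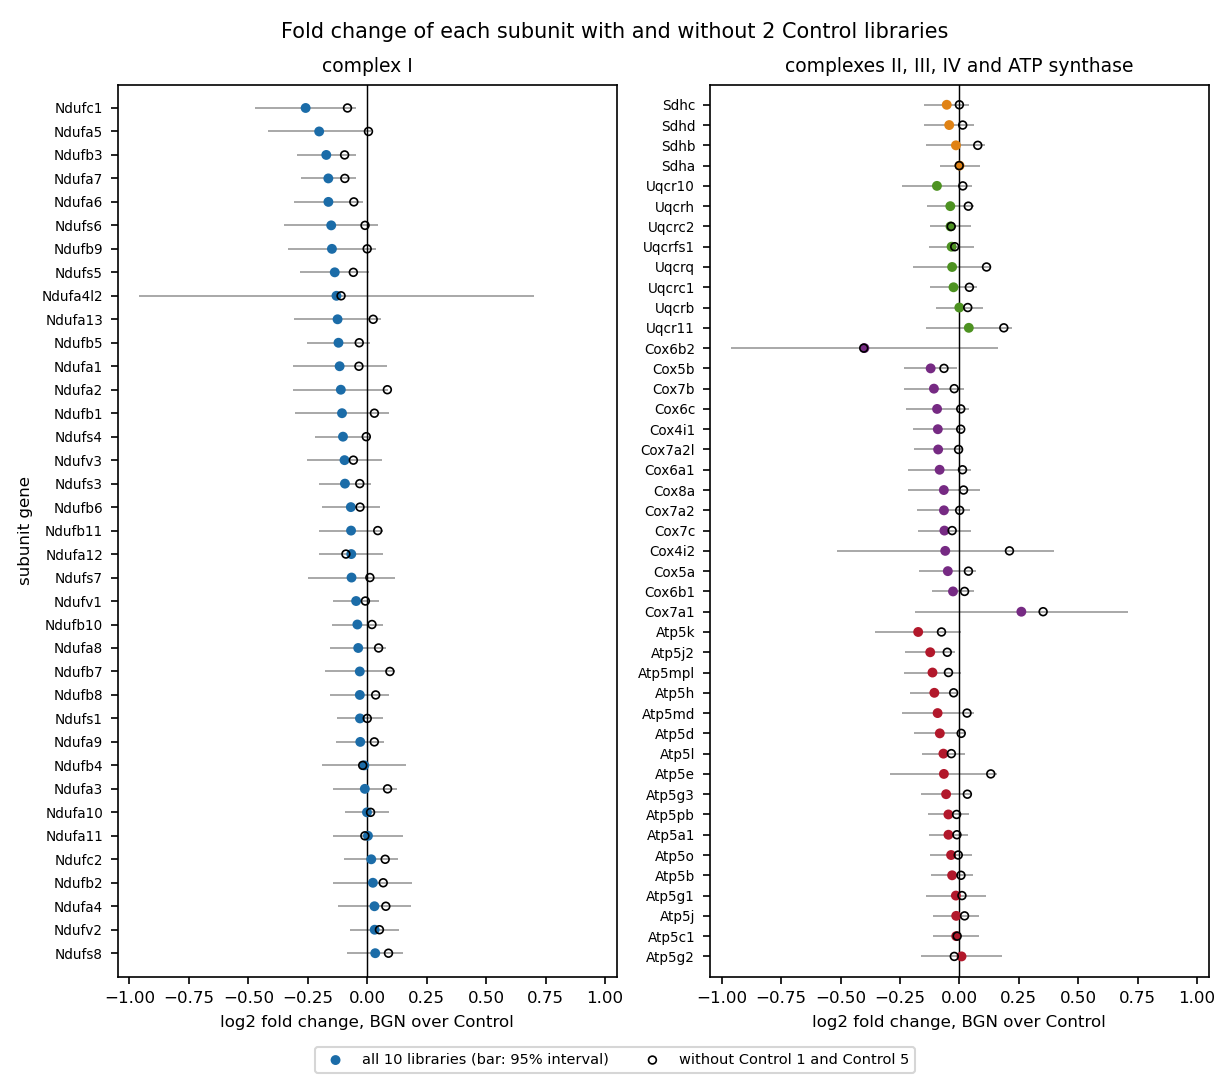
Log2 fold change, BGN over Control, of 80 of the 81 tested subunit genes from all 10 libraries (filled, bar: 95% interval) and from 8 libraries without Control replicates 1 and 5 (open). Of all 81 genes, 71 lie below 0 with all libraries and 37 without those 2 libraries.

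Complex I takes up NADH in a peripheral arm built from core subunits and holds a large number of accessory subunits around them. Of its 38 tested members 32 were below 0, with a median log2 fold change of -0.068. The 7 nuclear core subunits had 5 below 0 and a median of -0.031, and the 29 accessory subunits had 26 below 0 and a median of -0.095. Without Control replicates 1 and 5, 2 core subunits were below 0 with a median of 0.011. In that fit 15 accessory subunits were below 0, with a median of -0.00017. The median transcript was 1623 bases for core and 763 bases for accessory subunits. The difference between core and accessory subunits was not tested. Of the 7 members at an unadjusted p under 0.05, all lower in BGN, 4 were accessory subunits of complex I. That is 13.8% of the 29 accessory subunits, against 8.64% of all tested members and 2.38% of all tested genes. The members of smallest p in the complex were Ndufa7 and Ndufb3.

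Ndufa7, an accessory subunit of the peripheral arm, stood at 35.8, 38.6, 37.0, 38.5 and 37.4 CPM in BGN replicates 1 to 5 and at 44.6, 41.5, 41.2, 37.3 and 45.2 CPM in Control replicates 1 to 5. Control replicates 1 and 5 were the highest and 4 of 5 Control values lay above every BGN value, while Control replicate 4 lay among them. The means were 37.5 ± 1.15 (SD, n = 5) and 42.0 ± 3.18 CPM, a log2 fold change of -0.16 (SE 0.056). Ndufb3, an accessory subunit of the membrane arm, was at 34.0, 34.6, 35.4, 37.1 and 39.6 CPM in BGN and at 43.8, 38.7, 40.1, 37.2 and 44.1 CPM in Control. Here too Control replicates 1 and 5 were highest, and the groups overlapped between 37.2 and 39.6 CPM. Its log2 fold change was -0.17 (SE 0.060), and both genes had an adjusted p of 0.945 by edgeR with Benjamini-Hochberg adjustment.

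The estimate furthest below 0 in complex I was that of Ndufc1, a small membrane-arm subunit, named here after its values were seen, as was Ndufa5, an accessory subunit of the peripheral arm. Ndufc1 was at 11.5, 11.5, 12.4, 14.5 and 13.5 CPM in BGN and at 17.0, 13.5, 12.6, 14.3 and 18.8 CPM in Control, which is a log2 fold change of -0.26 (SE 0.10). Only Control replicates 1 and 5 exceeded the BGN values. Ndufa5 was at 16.8, 18.4, 17.6, 17.8 and 18.4 CPM in BGN and at 22.3, 17.1, 18.5, 17.6 and 27.0 CPM in Control. Its log2 fold change was -0.20 (SE 0.10) with all libraries and 0.0052 without Control replicates 1 and 5.

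The core subunits that bind NADH and pass its first electrons showed flatter values. Ndufv1, which carries the flavin, was at 65.5, 66.0, 66.9, 70.2 and 70.4 CPM in BGN and at 69.1, 66.7, 67.0, 71.1 and 76.5 CPM in Control. The groups overlapped over most of their range, and the log2 fold change was -0.047 (SE 0.047). Ndufs1, the largest iron-sulfur subunit, was at 109, 110.3, 109, 109 and 126 CPM in BGN and at 121, 107, 112, 119 and 116 CPM in Control. BGN replicate 5 was the highest of all 10 libraries, and the log2 fold change was -0.031 (SE 0.047). The other 5 core subunits ranged from a log2 fold change of -0.094 to 0.034.

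Complex II is the succinate dehydrogenase of the citric acid cycle and the only complex here with no mitochondrially encoded subunit. Its 4 genes had a median log2 fold change of -0.029, with 3 below 0. Sdhc, a membrane anchor, was at 125, 112, 117, 121 and 118 CPM in BGN and at 136, 117, 120.1, 119 and 123 CPM in Control. Control replicate 1 alone stood above the BGN values, and the log2 fold change was -0.053 (SE 0.046). The other anchor, Sdhd, was at 76.2, 79.8, 71.4, 76.7 and 78.8 CPM in BGN and at 86.5, 70.6, 79.4, 77.9 and 80.3 CPM in Control. Control replicate 1 was again the highest and Control replicate 2 the lowest, with a log2 fold change of -0.043 (SE 0.051).

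The catalytic pair of complex II was closest to 0. Sdha, the flavoprotein, averaged 231 ± 11.5 CPM with BGN and 231 ± 5.32 CPM in Control, at a log2 fold change of 0.00063 (SE 0.041) and a 95% interval from -0.083 to 0.085. It was 1 of 3 members below their own mean in Control replicate 1, the others being Ndufs7 and Ndufb2. Sdhb, the iron-sulfur subunit, averaged 52.9 ± 3.69 CPM with BGN and 53.5 ± 4.54 CPM in Control, at a log2 fold change of -0.015 (SE 0.060). Control replicates 1 and 5 were its highest, both at 58.4 CPM, and BGN replicate 5 followed at 57.3 CPM.

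Complex III carries electrons from ubiquinol to cytochrome c. Of its 8 nuclear subunits 7 were below 0, with a median of -0.032, and 0 reached an unadjusted p under 0.05. Uqcr10, a small subunit, was at 26.6, 28.8, 29.5, 28.4 and 28.8 CPM in BGN and at 36.6, 26.9, 29.8, 27.9 and 30.8 CPM in Control. Control replicate 1 stood apart at the top, Control replicates 5 and 3 lay just above the BGN values, and the remaining Control values lay among them. The log2 fold change was -0.094 (SE 0.071) with all libraries and 0.014 without Control replicates 1 and 5. Uqcrc2, a core protein, was at 165, 158, 177, 171 and 175 CPM in BGN and at 182, 168, 177, 175 and 166 CPM in Control. The groups overlapped over nearly their whole range, and the log2 fold change was -0.037 (SE 0.042). Uqcrfs1, the Rieske iron-sulfur protein, averaged 97.0 ± 3.29 CPM with BGN and 99.3 ± 5.67 CPM in Control, which is a log2 fold change of -0.033 (SE 0.045).

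Complex IV reduces oxygen. All 10 of its general isoforms and single genes were below 0, with a median of -0.074, and 3 of the 10 were below 0 without Control replicates 1 and 5. Cox5b, which binds zinc, was at 44.3, 45.9, 44.7, 49.7 and 50.4 CPM in BGN and at 55.8, 49.3, 49.2, 49.1 and 52.3 CPM in Control. Control replicates 1 and 5 lay above all BGN values, and the other Control values lay within the BGN range. The processed pseudogene row Cox5b-ps held 98 to 146 counts a library, and reads could be split between the 2 rows. The log2 fold change was -0.12 (SE 0.054), the only one in complex IV at an unadjusted p under 0.05. Cox7a2l, a relative of COX7A known for joining complexes III and IV, was at 189, 176, 189, 182 and 178 CPM in BGN and at 207, 192, 181, 177 and 216 CPM in Control. Its 3 highest values were Control replicates 5, 1 and 2, and its log2 fold change was -0.089 (SE 0.050). Cox4i1 was at 192, 187, 194, 204 and 192 CPM in BGN and at 222, 188, 198, 193 and 230.4 CPM in Control. Control replicates 1 and 5 exceeded all other libraries, and the log2 fold change was -0.091 (SE 0.051) with all libraries and 0.0055 without those 2.

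ATP synthase consists of a catalytic head, a ring of c subunits that turns in the membrane, a peripheral stalk and small membrane subunits. Of its 17 genes 16 were below 0, with a median of -0.056. The 5 genes of the head and central stalk had a median of -0.046, the 3 for subunit c -0.015, the 4 of the peripheral stalk -0.041, and the 5 small membrane subunits -0.11. The small membrane subunits were all 5 below 0, and 4 of 5 without Control replicates 1 and 5, with a median of -0.046.

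Among those small subunits Atp5j2, the f subunit, was at 78.5, 84.5, 80.4, 81.6 and 82.0 CPM in BGN and at 95.02, 77.7, 87.2, 88.4 and 95.1 CPM in Control. In Control, 4 of 5 values lay above every BGN value, and Control replicate 2 was the lowest of all 10 libraries. The log2 fold change was -0.12 (SE 0.051), with an adjusted p of 0.945 by edgeR with Benjamini-Hochberg adjustment. Atp5h, subunit d of the peripheral stalk, was at 101, 101, 97.0, 101 and 100.4 CPM in BGN and at 111, 104, 101, 101 and 122 CPM in Control. Its BGN values were tight and Control replicates 5 and 1 were highest, with a log2 fold change of -0.11 (SE 0.049).

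In the head, Atp5b was at 839, 829, 832, 905 and 927 CPM in BGN and at 929, 834, 871, 885 and 907 CPM in Control. The groups overlapped over nearly their whole range, with a log2 fold change of -0.031 (SE 0.043). Atp5a1 averaged 800.1 ± 30.0 CPM with BGN and 826 ± 32.5 CPM in Control, which is a log2 fold change of -0.046 (SE 0.040). Atp5e, the small epsilon subunit, was at 34.5, 34.7, 37.2, 39.0 and 37.0 CPM in BGN and at 42.3, 32.6, 32.8, 34.5 and 48.9 CPM in Control. Control held both the 2 highest and the 2 lowest values of this gene, and the log2 fold change was -0.065 (SE 0.10) with all libraries and 0.13 without Control replicates 1 and 5. The inhibitor of the ATPase, listed as Atpif1 and outside the rule, averaged 75.6 ± 2.49 CPM with BGN and 78.6 ± 5.63 CPM in Control, at a log2 fold change of -0.056 (SE 0.050).

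The members shared a pattern across libraries, with Control replicates 1 and 5 high and the other Control libraries among the BGN ones. For each gene the log2 CPM of a library minus the gene's mean over 10 libraries is called its deviation. The mean deviation over the 81 members was 0.15 in Control replicate 1 and 0.12 in Control replicate 5, and between -0.058 and 0.0035 in the other 8 libraries. BGN libraries averaged -0.032 ± 0.029 (SD, n = 5) and Control libraries 0.032 ± 0.094. In Control replicate 1, 78 of 81 members were above their own mean, and in Control replicate 5, 64 were. For 68 of 81 members (84.0%) the highest of the 10 libraries was Control replicate 1 or 5, against 31.1% of all tested genes. Both libraries were above the gene's own mean for 61 members (75.3%), against 27.0% of all tested genes. These libraries were picked after their values were seen, so the shares describe the pattern and do not test it.

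**Figure D3:**
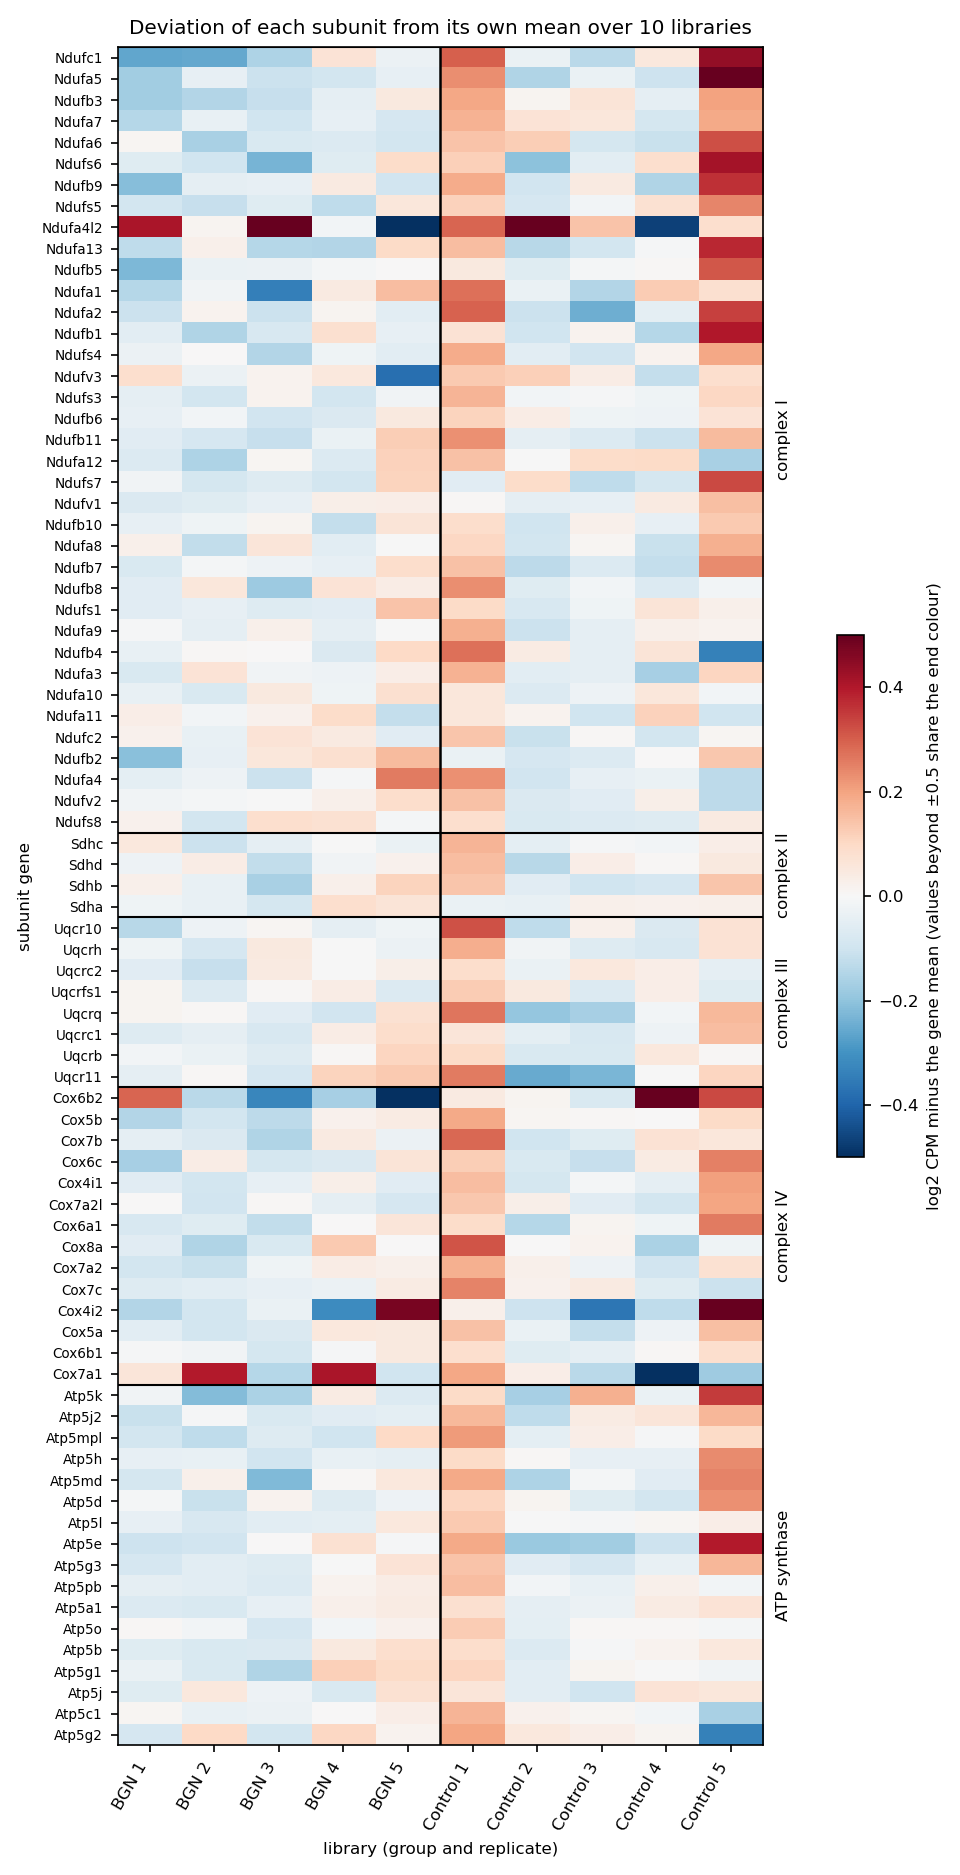
Deviation of 80 of the 81 tested subunit genes (rows, by complex and ordered by fold change) in each of the 10 libraries (columns), as log2 CPM minus the gene's mean, with values beyond ±0.5 in the end colours. Control replicate 1 is above the gene mean for 78 of all 81 genes and Control replicate 5 for 64.

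All 5 complexes took part in this pattern. In Control replicate 1 the mean deviation was 0.15 for complex I, 0.11 for complex II, 0.18 for complex III, 0.16 for complex IV and 0.14 for ATP synthase. In Control replicate 5 it was 0.14, 0.063, 0.058, 0.15 and 0.092 in the same order. Members took 0.759% of all counts in Control replicate 1 and 0.741% in Control replicate 5, and between 0.667% and 0.715% in the other 8 libraries.

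**Figure D4:**
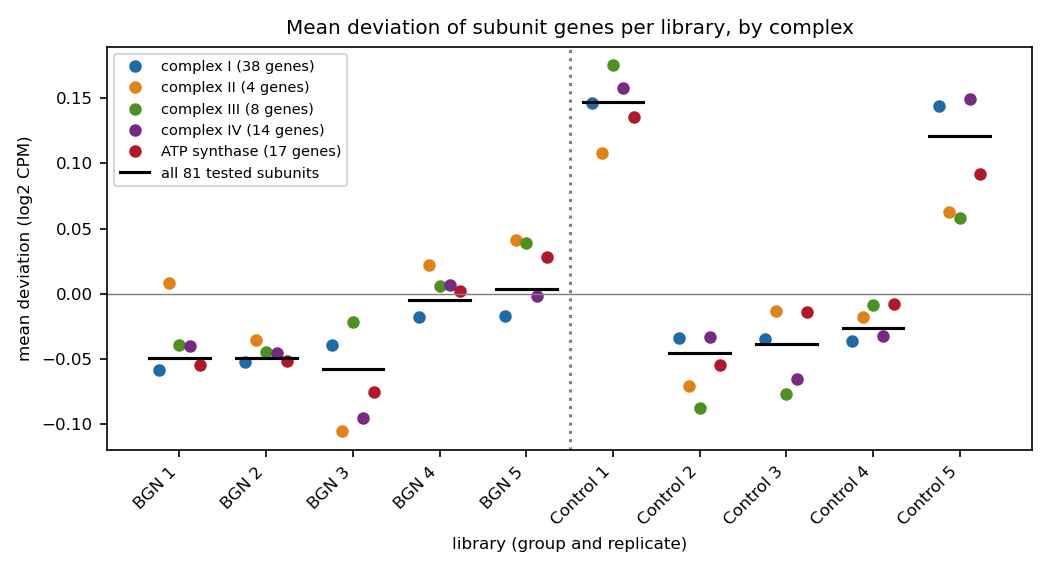
Mean deviation (log2 CPM) of the tested subunit genes per library for each complex (coloured points) and for all 81 genes (bars). Control replicates 1 and 5 stand at 0.15 and 0.12, and the other 8 libraries between -0.058 and 0.0035.

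The estimates for BGN over Control moved with these 2 libraries. Without Control replicate 1, 59 of 81 members were below 0 and the median was -0.026. Without Control replicate 5, 62 were below 0 and the median was -0.037. Without both, 37 were below and 44 above 0, the median was 0.0055, and 0 members were lower at an unadjusted p under 0.05. Under that setting 2 members, Atp5e and Uqcr11, were higher at an unadjusted p under 0.05. The smallest adjusted p of a member was 0.9996 by edgeR with Benjamini-Hochberg adjustment. That fit tested 14736 genes. Of these, 580 were at an unadjusted p under 0.05 in either direction, and 1.78% of the 14736 were lower in BGN at that p. Of the 71 members below 0 with all libraries, 34 remained below 0 and 37 turned above it. The pair was picked with earlier results of these libraries known, and leaving out the highest Control libraries lowers the Control mean by construction. With any 1 of the 10 libraries left out, 50 members were below 0 in all 10 fits and 3 were above 0 in all 10.

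Control replicates 1 and 5 differed from each other in which subunits were high. Over the 81 members the deviations in the pair had a Spearman rho of -0.11, a description across genes that share libraries and depth. In Control replicate 1 the deviations had an SD of 0.080 and ran from -0.057 for Ndufs7 to 0.32 for Uqcr10. In Control replicate 5 the SD was 0.18, and the deviations ran from -0.34 for Atp5g2 to 0.68 for Cox4i2. Ndufa5 stood at 0.51 there, Ndufc1 at 0.44 and Ndufs6 at 0.42, while Ndufb4 was at -0.34.

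Transcript length and GC content moved with these libraries across all genes. Over 14273 tested genes with a length, the deviation in Control replicate 1 had a Spearman rho of -0.39 with transcript length, against -0.12 to 0.17 in the other 9 libraries. That in Control replicate 5 had a rho of 0.42 with GC content, against -0.19 to 0.15 in the other 9. Among the 81 members these 2 values were -0.31 and 0.29, but trends of like size were not limited to these libraries: Control replicate 4 had a rho of 0.27 with length and -0.37 with GC content. In Control replicate 1 the rho with GC content was 0.15 over all genes and -0.17 over the members. The median member transcript was 809 bases long, against 2740 bases for all tested genes with a length. After each library's trend on length and GC content was removed, 52 of 81 members were below 0 and the median was -0.022. At an unadjusted p under 0.05, 3 members were then lower, against 1.65% of all tested genes. These are correlations across genes, which are not independent replicates, and how far the trends account for the pattern was not tested.

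The alternative isoforms of complex IV were scarce in these cells. Cox4i2, the form of COX4 known from lung and low oxygen, gave between 0.719% and 1.36% of the COX4 counts of a library. It was at 1.69, 1.75, 1.83, 1.49 and 2.64 CPM in BGN and at 1.91, 1.74, 1.44, 1.71 and 3.06 CPM in Control, from 27 to 58 counts a library. Replicate 5 was the highest in both groups, and the log2 fold change was -0.060 (SE 0.22). Cox7a1, the form known from heart and skeletal muscle, gave between 1.898% and 3.77% of the COX7A counts. It averaged 1.64 ± 0.322 CPM with BGN and 1.36 ± 0.265 CPM in Control, which is a log2 fold change of 0.26 (SE 0.22) with an adjusted p of 0.963 by edgeR with Benjamini-Hochberg adjustment. Cox6b2, known from testis, gave between 0.390% and 0.991% of the COX6B counts and averaged 0.702 ± 0.182 CPM with BGN and 0.925 ± 0.205 CPM in Control, which is a log2 fold change of -0.40 (SE 0.27).

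Of the isoforms known from muscle and testis, Cox6a2, Cox7b2, Cox8b and Cox8c had 0 counts in every library. Over the 196686029 counts of all libraries together, 0 counts allow a level of up to 0.0153 CPM each, taking 3 counts as the limit and covering counting error only. The row Ndufb11b was at 0 as well. The other untested rows had few counts: Ndufa11b 1 in all, Ndufb4c 34, Cox6c2 48 and Ndufs6b 96. These rows are paralogs of subunit genes, and reads could be split between such copies, since how the authors' counting treated reads with several matches is not given. The 9 rows at 0 or with few counts did not pass the filter on low counts, so the 81 tested members are those with counts enough to test.

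Ndufa4 and Ndufa4l2 are named for complex I, but Ndufa4 is known as a subunit of complex IV and Ndufa4l2 as its relative that responds to low oxygen. Ndufa4l2 was the most variable tested member, with a coefficient of variation of 32.5% over the 10 libraries against a median of 7.36%. It stood at 35.9, 27.3, 39.8, 26.7 and 9.02 CPM in BGN and at 33.1, 39.9, 29.8, 19.5 and 28.6 CPM in Control. BGN replicate 5 was far below all other libraries, with 198 counts against 377 to 848. Its deviation there was -1.57, and the share of Ndufa4l2 in the counts of the pair was 13.9% in that library and up to 47.8% elsewhere. The log2 fold change was -0.13 (SE 0.36) with all libraries and 0.10 without BGN replicate 5. Ndufa4 was at 45.3, 46.0, 43.4, 46.5 and 56.0 CPM in BGN and at 54.8, 43.7, 45.5, 45.7 and 42.7 CPM in Control. The same BGN replicate 5 was its highest library, followed by Control replicate 1, and the log2 fold change was 0.030 (SE 0.073). Counting Ndufa4 with complex IV left that complex with 13 of 15 tested genes below 0 and a median of -0.065.

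**Figure D5:**
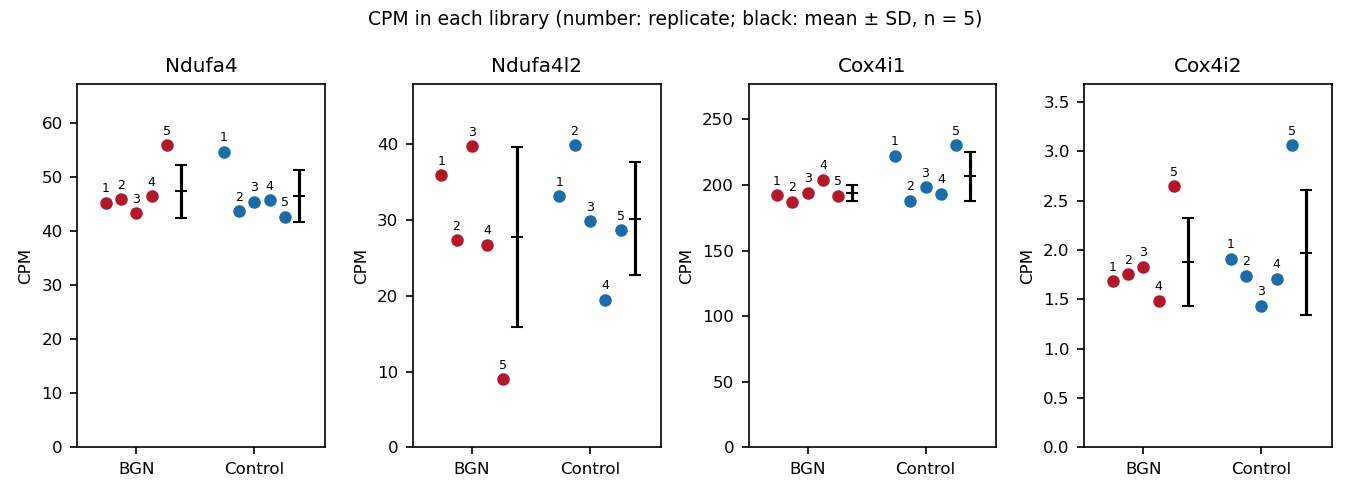
CPM of Ndufa4, Ndufa4l2, Cox4i1 and Cox4i2 in each library (points numbered by replicate) with mean ± SD (n = 5). BGN replicate 5 is lowest for Ndufa4l2 (9.02 CPM) and highest for Ndufa4 (56.0 CPM), and replicate 5 of both groups is highest for Cox4i2.

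The ring subunit c is made by 3 genes that encode the same mature protein behind different import sequences. Atp5g3 gave a median of 57.4% of their counts, Atp5g2 30.3% and Atp5g1 12.4%. Atp5g2 was at 71.4, 81.3, 71.1, 81.5 and 76.7 CPM in BGN and at 86.9, 78.7, 77.5, 76.5 and 59.9 CPM in Control. Control replicate 1 was its highest and Control replicate 5 its lowest library, so the pair that was high for most members took opposite ends here. Its log2 fold change was 0.0089 (SE 0.080), the only one above 0 in ATP synthase. A like case was Ndufb4, an accessory subunit of complex I chosen after its values were seen, at 24.6 CPM in Control replicate 1 and 16.1 CPM in Control replicate 5, the highest and the lowest of its 10 libraries. Its log2 fold change was -0.012 (SE 0.085).

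The other genes of the pathway were read in lists, and 0 passed the test in any of them, as was so for all genes. Of 52 tested assembly factors 32 were below 0, with a median of -0.031. At an unadjusted p under 0.05, 2 were lower (3.85%, against 2.38% of all tested genes). These were Ndufaf8, an assembly factor of complex I, at 3.35 ± 0.523 CPM with BGN and 4.46 ± 0.603 CPM in Control, and Cox17, the copper chaperone of complex IV, at 11.5 ± 0.891 CPM and 13.6 ± 1.52 CPM. Their log2 fold changes were -0.41 and -0.23, both with an adjusted p of 0.945 by edgeR with Benjamini-Hochberg adjustment. The genes of smallest p for the assembly of the other complexes were Sdhaf2 with a log2 fold change of -0.094, Uqcc2 with -0.12 and Fmc1 with -0.29. Of 13 citric acid cycle enzymes 9 were below 0, with a median of -0.0057, and of 13 genes of ubiquinone synthesis 5 were, with a median of 0.017. Mdh2 had the smallest p of the former, with a log2 fold change of -0.068, and Coq9 of the latter, with -0.11.

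None of the factors known to drive these genes passed the test. Of 13 regulators of mitochondrial biogenesis 7 were below 0, with a median of -0.0029. Nrf1 averaged 39.2 ± 2.53 CPM with BGN and 39.2 ± 3.02 CPM in Control, and Gabpa, the ETS factor of these promoters, 128 ± 3.71 and 129 ± 8.69 CPM. Tfam, which packs and transcribes mitochondrial DNA, averaged 64.3 ± 2.15 and 64.5 ± 2.87 CPM. Ppargc1a, the coactivator PGC1alpha, averaged 8.25 ± 1.27 and 7.75 ± 0.781 CPM, with a log2 fold change of 0.086. Esrra, the estrogen-related receptor that works with it, had the smallest p of the list, at 26.8 ± 2.42 and 29.1 ± 1.04 CPM and a log2 fold change of -0.12. Among the 6 other nuclear genes of the chain outside the rule 5 were below 0, with Cycs, cytochrome c, at -0.012, Cyc1, cytochrome c1, at -0.031, Ndufab1, the acyl carrier of complex I, at -0.039 and Etfb, an electron carrier from fatty acid oxidation, at -0.18.

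The 13 subunits encoded by mitochondrial DNA had estimates on the other side of 0. All 13 were above it, with a median log2 fold change of 0.26, and mt-Co2, a core subunit of complex IV, was the only one at an unadjusted p under 0.05. It stood at 35.1, 38.4, 30.4, 33.3 and 31.4 CPM in BGN and at 26.8, 26.9, 31.6, 32.3 and 19.1 CPM in Control. These values are a very small part of the counts of the 13 genes together, and the reason was not tested. Control replicate 5 was the lowest, and Control replicates 1 and 2 followed. Its log2 fold change was 0.30, with an adjusted p of 0.945 by edgeR with Benjamini-Hochberg adjustment. The mean deviation of the 13 genes was -0.90 in Control replicate 5, -0.19 in Control replicate 1 and -0.15 in Control replicate 2, and between 0.053 and 0.28 in the other 7 libraries. The 13 genes took 2.14% ± 0.0476 of counts in BGN and 1.80% ± 0.427 in Control, with an exact permutation p of 0.0952 (two-sided). Without Control replicate 5, 12 of the 13 were above 0 and the median was 0.11, and without Control replicates 1 and 5 the values were 9 of 13 and 0.046. The 2 Control libraries in which the nuclear members were highest were thus among the 3 in which the mitochondrially encoded genes were lowest.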

How the data were processed

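Poly-A selected RNA of 10 samples was sequenced, 5 BGN and 5 Control, and groups came from the sample titles. The authors deposited whole-number counts of reads for each gene symbol, not normalized. Tools in the submitters' processing notes are HISAT2 2.2.1, cutadapt 1.9.1, FastQC, HTSeq and DESeq2, with GRCm39 as the build. Annotation release, strand setting and the handling of reads with several matches: not given in the sources used here, so reads of overlapping, antisense or near-identical genes may not be separable. The 14 rows marked -ps were left out of the set, and Cox5b-ps held up to 146 counts a library.

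The members and lists were chosen with earlier results of these data known. The robust quasi-likelihood test of edgeR 4.0.16 (R 4.3.3) was run after filterByExpr and TMM scaling, with no term but treatment. P-values of all 14415 genes were adjusted together by Benjamini-Hochberg, and genes with an adjusted value under 0.05 counted as called. CPM values are counts scaled by library total and TMM factor. Deviations use log2 CPM with a prior count of 2. Levels per length use the principal transcript of each gene in GENCODE annotation of build GRCm38, chosen after the median transcript was seen to be a fragment for several genes, and lengths were at hand for 89 of 90 members. As the builds differ, that annotation served for length and GC content only. Promoter windows are RefSeq's, build GRCm38.p6.

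Named genes were those called, the 2 of smallest p and the highest and lowest level per length in each complex, a list fixed by role, all untested members, the gene of smallest p in each other list, and a short list of regulators; others are said to be chosen after their values were seen. One gene that the rule names is not reported here and is left out of the plots of single genes. The test was checked on simulated counts for the 14415 genes of this comparison, 50 of them changed at each of several folds. Changed genes were drawn from those with a mean count of at least 50. Each gene was simulated independently, with no shift shared by the genes of a library. It called 72% of genes changed 1.25-fold, 94% at 1.5-fold, 100% at 2-fold and 98% at 3-fold, and 15 of 14215 unchanged genes. The biological coefficient of variation was 6.85%. Alternatives were other scalings, other filters, DESeq2 1.42.0, limma-voom (limma 3.58.1) with quality weights, the replicate number as a block, removal of the trend on length and GC content, and leaving out each library or 2 named pairs.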

Additional observations from a re-analysis of the deposited data

Results flagged for a closer look

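The CPM of named genes, the mean deviations and the shares of counts were searched, in each group of 5 libraries, for a sample far from the others, where the gap to its nearest neighbour exceeded 0.71 of the whole range of the group. Of 110 groups 4 had one, and chance alone gives about 1 in 20. Ndufs1, the largest iron-sulfur subunit of complex I, was at 125.5 CPM in BGN replicate 5, with the next BGN value at 110.3 CPM. Ndufa4 was at 56.0 CPM in BGN replicate 5, with the next at 46.5 CPM. In the Control group Ndufa4 was at 54.8 CPM in replicate 1, with the next at 45.7 CPM. Atp5h, of the peripheral stalk of ATP synthase, was at 97.0 CPM in BGN replicate 3, below the next lowest value of 100.4 CPM, in a group whose whole range ended at 101 CPM.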

How the results depend on the processing

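No member was called under any alternative run. Over all genes 0 were called under each alternative except with no filter on low counts, where edgeR's adjusted p fell below 0.05 for 3 genes, none of them a member. Among them, named after their values were seen, were Oas3 (log2 fold change -0.88) and Kctd12 (0.24). The median log2 fold change of the members stayed below 0 under each alternative except without Control replicates 1 and 5 together (0.0055), and ran from -0.075 to -0.026 when 1 library was left out. The number of members below 0 ran from 59 to 74 when 1 library was left out and was 37 without Control replicates 1 and 5. The number of members lower in BGN at an unadjusted p under 0.05 was 7 in the full fit, against 2.38% of all tested genes. The share of all genes at that p changed with the setting and is given in brackets. With no filter 16 members were lower (3.04%). With the trend on length and GC content removed 3 were lower (1.65%), and 3 with the replicate number as a block as well (2.30%). Without Control replicates 1 and 5 the number was 0 (1.78%). When 1 library was left out it ran from 2 to 16. The 2 came without Control replicate 1 (1.68%) and without Control replicate 5 (2.31%), and the 16 without Control replicate 2 (3.07%). The causes were not tested.

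Same-numbered samples did not deviate together: the correlation of their deviations ran from -0.031 to 0.27, with 1 of 5 pairs above 0.1 and 1 of 5 BGN samples correlating best with its own number. With the replicate number as a block 0 members and 0 genes were called. At an unadjusted p under 0.05, 11 members were then lower, against 2.91% of all tested genes.

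Of 43 genes of the respiratory chain and its pathway whose own log2 fold change is given, 22 kept their sign under all alternatives run. Without Control replicates 1 and 5 together the sign changed for Atp5b (0.0066), Atp5e (0.13), Atp5g2 (-0.021), Cox4i1 (0.0055), Cox4i2 (0.21), Ndufa5 (0.0052), Ndufs1 (0.00016), Sdha (-0.00080), Sdhb (0.077), Sdhd (0.014) and Uqcr10 (0.014), and outside the members for Atpif1 (0.010), Cyc1 (0.016), Etfb (0.027), Mdh2 (0.0095), Ndufab1 (0.028) and Ppargc1a (-0.012). Without BGN replicate 5 and Control replicate 5 together it changed for Atp5e (0.035), Atp5g2 (-0.065), Ndufa4 (-0.064), Ndufa4l2 (0.083) and Sdha (-0.0075). With limma-voom it changed for Atp5e (0.023), Atp5g2 (-0.025), Cox4i2 (0.023), Sdha (-0.0092) and Sdhb (0.0093). With the trend on length and GC content removed it changed for Cox4i2 (0.0062), Cyc1 (0.011), Ndufb4 (0.027) and Sdhb (0.033), and with the block added for Atp5e (0.0035), Cox4i2 (0.0056), Cyc1 (0.010), Ndufb4 (0.034) and Sdhb (0.032). Sdha also turned with upper-quartile factors (-0.0010), library totals (-0.0034) and the replicate block (-0.00054). With 1 library left out, the sign changed in at least 1 fit for Atp5e (range -0.12 to 0.039), Atp5g2 (-0.064 to 0.061), Cox4i2 (-0.22 to 0.15), Cycs (-0.084 to 0.038), Ndufab1 (-0.067 to 0.020), Ndufa4 (-0.036 to 0.095), Ndufa4l2 (-0.30 to 0.10), Ndufb4 (-0.087 to 0.060), Sdha (-0.019 to 0.022) and Sdhb (-0.044 to 0.023).

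The median level per length of the tested members was 149.8 with the principal transcript, 115 with the median transcript and 148 with the longest. Depth limits the isoforms Cox4i2, Cox7a1 and Cox6b2, whose intervals exceed a 1.25-fold difference. They averaged 37.9, 29.4 and 15.9 counts a library. In simulated data the test called 72% of genes changed 1.25-fold. The changed genes there were drawn above a floor on mean count that these isoforms did not reach, so that share does not cover them.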
